A study of Mus musculus with 2 samples.

Results

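The imprinted Dlk1-Meg3 cluster of mouse chromosome 12 was followed through 5 genes chosen by symbol, Dlk1, Meg3, Rtl1, Rian and Mirg, of 55536 annotated genes. They were measured by total RNA sequencing of left cerebral cortex from females, 14 days old, of the strain B6CASTF1/J, a first-generation hybrid with 1 parent of a C57BL/6 strain and the other of the CAST strain, bred without any engineered allele or treatment that the labels name. There were 2 libraries of 1 group, replicate 2 and replicate 1, each made from 300 ng of RNA with ERCC spike-ins, which are synthetic RNAs added in known amounts. The descriptions speak of 3 females, the tissue labels differ between the libraries, and the labels do not say how many mice went into each.

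In this cluster only 1 parental copy of each gene is normally used. Dlk1, Rtl1 and the more distant Dio3 are expressed from the paternal copy and code for proteins, whereas Meg3, Rian and Mirg are expressed from the maternal copy and yield long noncoding RNAs. A differentially methylated region between Dlk1 and Meg3 controls which set is active. The noncoding RNAs are read on the plus strand and are known as hosts: the introns of Rian hold box C/D small nucleolar RNAs, Mirg lies in a large group of microRNAs, and further microRNAs lie opposite Rtl1 and are known to direct cleavage of its transcript. In the adult brain Meg3 is known as an abundant nuclear RNA of neurons. The tables hold 1 value per gene with no split by parental copy, so allelic origin was not analysed here.

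The cluster spans 296.6 kb in mm10 from the start of Dlk1 to the end of Mirg, chr12:109452823-109749460. Dlk1 lies at chr12:109452823-109463336 on the plus strand, Meg3 at chr12:109541001-109571726 on the plus strand, Rtl1 at chr12:109589193-109600330 on the minus strand, Rian at chr12:109603940-109661716 and Mirg at chr12:109729764-109749460, both on the plus strand. The gap between Dlk1 and Meg3 is 77.7 kb and that between Rian and Mirg is 68.0 kb. Within these bounds 104 genes are annotated, among them 66 microRNA and 23 small nucleolar RNA genes.

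The promoter of Meg3 is shown because Meg3 carried 78.8% of the cluster's counts in replicate 2 and 75.7% in replicate 1. RefSeq lists a pair of promoters for the gene. The upstream one lies at chr12:109540746-109541045 (GRCm38.p6, plus strand), from 250 bases before the start of transcription to 50 after it, and capitals mark the letters searched:
Meg3 promoter: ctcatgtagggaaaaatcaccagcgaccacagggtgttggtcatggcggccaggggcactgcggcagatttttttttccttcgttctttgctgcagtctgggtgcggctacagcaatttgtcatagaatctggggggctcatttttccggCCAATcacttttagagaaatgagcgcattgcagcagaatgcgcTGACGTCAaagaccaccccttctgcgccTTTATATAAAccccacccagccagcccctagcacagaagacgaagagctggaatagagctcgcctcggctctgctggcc
Searched on both strands were TGACGTCA, the palindrome bound by cAMP-responsive factors, TATAAA, the TATA box, CCAAT and GGGCGG. TGACGTCA began 57 bases before the start, in a window where 1.79% of 32851 RefSeq promoters of this length hold it. TATAAA was found in overlapping copies on both strands, beginning 29 and 25 bases before the start, and 13.6% of all promoters hold it. CCAAT began 100 bases before the start, as in 37.4% of promoters. GGGCGG, held by 35.7% of all promoters, was absent from this window. The downstream Meg3 promoter, chr12:109545148-109545447 (GRCm38.p6, plus strand), held none of these letters. It surrounds base 109545398, where Meg3-209, the transcript with most of Meg3's counts, begins in the annotation, whereas Meg3-205 begins within the upstream window. None was found in the 300 bases around the start of Dlk1 or of Rian either. The window listed for Mirg, chr12:109734731-109735030 (GRCm38.p6, plus strand), held CCAAT once, 184 bases before its start. It lies inside the annotated gene, not at its first base, and surrounds base 109734981, where Mirg-206 begins. Mirg-206 held 3.98% of Mirg's counts in replicate 2 and 3.31% in replicate 1. A match describes the letters and shows no binding.

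RefSeq lists 112 mature microRNAs of 60 genes in the cluster. For 57 of these genes the hairpin was given too, and all 57 hairpins matched a microRNA gene of the annotation used for the counts. Of the hairpins, 6 lie in an exon of Rtl1 on the opposite strand, 1 lies in an exon of Rtl1 on the same strand, 3 lie in introns of Rian, 14 lie within Mirg, 1 lies in an exon of Meg3, and 32 lie outside the 5 genes. Mir433, opposite Rtl1, and Mir1188, in an intron of Rian, are shown because they were the microRNA loci with 10 counts or more, and Mir127, Mir136 and Mir434 because they face Rtl1 as well. Capitals mark the seed, bases 2 to 8, which pairs with target RNAs:
miR-433-5p: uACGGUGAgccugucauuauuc
miR-433-3p: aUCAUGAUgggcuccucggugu
miR-1188-5p: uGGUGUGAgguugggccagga
miR-1188-3p: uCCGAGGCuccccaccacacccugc
miR-127-3p: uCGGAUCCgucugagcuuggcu
miR-136-5p: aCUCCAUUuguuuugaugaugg
miR-434-3p: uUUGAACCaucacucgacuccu
None of these 7 seeds recurred in another hairpin of the cluster. Over all 112 mature microRNAs there were 102 different seeds, and 10 seeds were shared by 2 hairpins each, 16 hairpins in all. The shared pairs below come from the run of hairpins between Rian and Mirg:
miR-379-5p: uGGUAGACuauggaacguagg
miR-1193-5p: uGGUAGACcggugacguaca
miR-376b-5p: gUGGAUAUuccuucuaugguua
miR-376c-5p: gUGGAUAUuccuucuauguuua
The first pair shares the seed GGUAGAC, and the second pair shares UGGAUAU and differs by 1 base over 22.

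Meg3 and Rian were among the most abundant RNAs of this tissue, Mirg was moderate, and the protein-coding Dlk1 and Rtl1 were near the floor. Levels are given in TPM, a share of all transcripts that divides counts by length. Meg3 had 1566 TPM in replicate 2 and 1073 TPM in replicate 1 (mean 1319 ± 349, SD, n = 2), from 99279 and 68236 counts. It held 0.310% of all gene counts in replicate 2 and 0.205% in replicate 1, and was the third long noncoding RNA by counts in replicate 2 and the fourth in replicate 1, among 10155 annotated. Rian had 738 TPM in replicate 2 and 594 TPM in replicate 1 (mean 666 ± 102, SD, n = 2), from 22637 and 19010 counts. Mirg had 58.5 TPM in replicate 2 and 45.2 TPM in replicate 1 (mean 51.9 ± 9.42, SD, n = 2), from 1803 and 1423 counts. All 3 noncoding RNAs had the higher level in replicate 2.

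Dlk1, a transmembrane protein related to Notch ligands, had 2.38 TPM in replicate 2 and 0.39 TPM in replicate 1, from 104 counts (exact Poisson interval 85.0 to 126) and 14 counts (7.65 to 23.5). Rtl1, a protein derived from a retrotransposon that is required in the placenta, had 0.07 TPM in replicate 2 and 0.04 TPM in replicate 1, from 9 counts (4.12 to 17.1) and 5 counts (1.62 to 11.7). These intervals are at 95% and cover counting error only. The Dlk1 counts of the libraries did not overlap within them, and those of Rtl1 did.

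The order from high to low was Meg3, Rian, Mirg, Dlk1 and Rtl1 in both libraries, and the ranges of neighbours in it did not overlap over the 2 libraries. A second quantification by the authors, made from the reads, did not keep the first step apart. There Meg3 had 1455 TPM in replicate 2 and 974 TPM in replicate 1, and Rian had 1290 TPM in replicate 2 and 1001 TPM in replicate 1, so that their ranges overlapped and Rian stood above Meg3 in replicate 1. The mean ratio of Rian over Meg3 on the log2(TPM + 0.1) scale was -0.97 ± 0.16 (SD, n = 2) in the first quantification and -0.07 in the second. The order of Mirg, Dlk1 and Rtl1 was the same in both. The counts of Rian were close in both, at 23860 in replicate 2 and 20058 in replicate 1 in the second table.

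**Figure D1:**
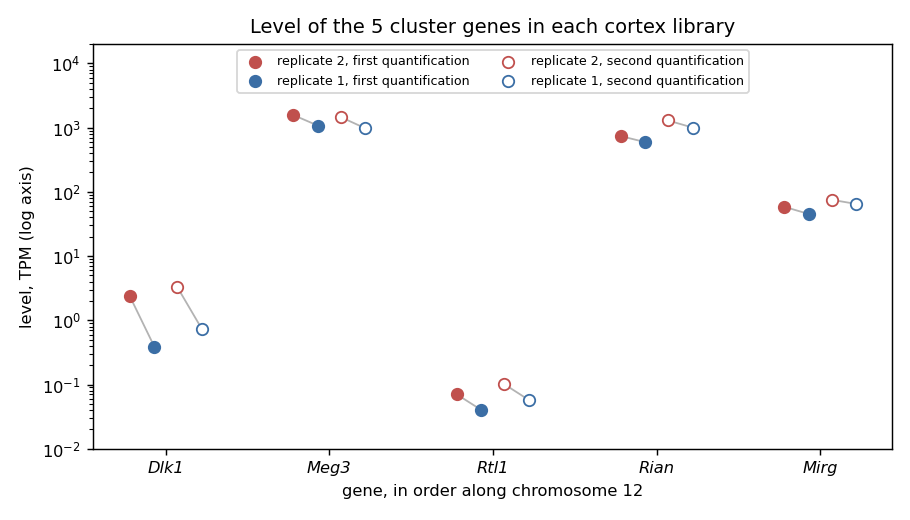
Level of each gene in TPM on a log axis, with a point per library: filled for the first quantification, open for the second, red for replicate 2 and blue for replicate 1. All 5 genes are higher in replicate 2 under both quantifications, and Meg3 and Rian nearly coincide only in the second, between 974 and 1455 TPM for Meg3 and between 1001 and 1290 TPM for Rian.

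By the distance of log2(TPM + 0.1) over both libraries, the genes nearest in level to Meg3 were Snurf, Eef1a1 and Actb. Eef1a1, a translation elongation factor, had 1310 TPM in replicate 2 and 1333 TPM in replicate 1, and Actb, cytoplasmic actin, had 1428 TPM and 1469 TPM, so both lacked Meg3's gap between the libraries. Rian's nearest genes were Rplp1, Rprl3 and Gpm6a, and Mirg's were Zfp512b, Atxn2l and Afdn. Those nearest to Dlk1 were Gm27999, Capsl and Gm12902, and for Rtl1 9 genes had the same pair of values, among them Skor1, Lrat and Trim58. Likeness over 2 libraries is a description of level alone.

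The libraries differed in the cluster by more than counting error. Each gene was tested with a two-sided exact binomial test of its counts, with library sizes from edgeR's TMM method and Benjamini-Hochberg adjustment over the 18887 genes that reached 10 counts in either library. Of all genes tested 3831 (20.3%) passed an adjusted p of 0.05, with 8.88% higher and 11.4% lower in replicate 2. The higher share of all calls was 43.8% here, 70.5% with library sizes from total counts and 67.6% with those from spike-ins. All 4 tested genes among the 5 were called higher in replicate 2. The test compares these 2 libraries and takes counting error alone, so it says nothing of other mice, and the spread between the libraries may be technical. In bulk tissue, more cells of a type and more RNA per cell cannot be told apart.

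Meg3 was 1.46-fold higher in replicate 2, with a log2 ratio of CPM (counts scaled to library size) plus 0.5 of 0.54 ± 0.007 (counting SE) and an adjusted p too small to be represented. Rian was 1.19-fold higher (0.25 ± 0.01, counting SE) with an adjusted p of 8.27e-69 in the exact test, and Mirg was 1.27-fold higher (0.34 ± 0.05, counting SE) with an adjusted p of 5.94e-10 in the exact test. If libraries are instead allowed to vary with an assumed dispersion of 0.01 in edgeR's exact test, 0.964% of genes pass in all, and Meg3, Rian and Mirg do not (adjusted p = 0.374, 1 and 1). Dlk1 passes that test too.

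Dlk1 was 7.43-fold higher in replicate 2 (exact 95% interval 4.24 to 14.1), the largest ratio of the 4 tested genes. On the scale with 0.5 CPM added, which pulls low genes together, its log2 ratio was 1.99 and its adjusted p 1.10e-16 in the exact test. Rtl1 stayed under the count minimum and was not tested.

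The 3 noncoding RNAs did not move by equal amounts. The count ratio of Rian over Meg3 was lower in replicate 2 by a log2 difference of -0.29 (95% counting interval -0.32 to -0.26), and that of Mirg over Meg3 by -0.20 (-0.30 to -0.10). Mirg over Rian differed by 0.09, with an interval of -0.01 to 0.19 that includes 0. Such ratios within a library do not depend on how library sizes are scaled. Meg3 over Dlk1 was lower in replicate 2 by -2.35 (-3.16 to -1.55). These intervals take counting error alone.

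Higher values in replicate 2 were also found in the few other genes of the cluster that could be tested. Besides the 5 genes, 5 of 99 annotated genes reached 10 counts in a library, and the rest were not tested. Of these 5, 4 were called higher, where 8.88% of all genes tested were. Mir433, which was called, and Mir1188, which was not, reached 10 counts in replicate 2 only. The filter thus fixed the direction of their ratios, so these loci cannot show whether the higher values extend further. The other calls were those of Gm26945, Gm37899 and B830012L14Rik. Gm26945, a long noncoding RNA within Rian's span at chr12:109640341-109642351, had 398 counts in replicate 2 and 212 in replicate 1, 1.88-fold higher (exact interval 1.59 to 2.23). As it overlaps Rian, reads may have been divided between them. Gm37899, an unspliced locus awaiting experimental support that follows Rian at chr12:109668869-109677585, had 1330 and 964 counts in replicate 2 and replicate 1, 1.38-fold higher (log2 0.46 ± 0.06, counting SE). B830012L14Rik, a long noncoding RNA just before the microRNA run at chr12:109695586-109702587, had 340 counts in replicate 2 and 253 in replicate 1, 1.34-fold higher (1.14 to 1.59). The adjusted p-values of Gm26945, Gm37899 and B830012L14Rik in the exact test were 1.33e-12, 7.80e-13 and 0.00306. With the assumed dispersion in edgeR's exact test only the call of Gm26945 remained among the 4.

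Of the 66 microRNA genes 5 had any count, and of the 23 small nucleolar RNA genes none had. Rows as short as the fragment length that the first tables assume have an effective length of 0 and can receive no count, and this held for 58 of the microRNA and all 23 of the small nucleolar RNA genes. The zeros are therefore no measurement of these RNAs. Mir433, whose mature sequences are given above, had 23 counts in replicate 2 and 8 in replicate 1 and was called higher (2.88-fold, exact interval 1.24 to 7.44, adjusted p = 0.0373 in the exact test), a call lost with DESeq2 size factors (adjusted p = 0.0527 in the exact test). Mir1188 had 11 counts in replicate 2 and 5 in replicate 1 and was not called (2.20-fold, 0.705 to 8.08, adjusted p = 0.339 in the exact test). Both were listed at 0 in the second table, where none of the 4724 rows of 124 nucleotides or fewer held a count, so that these zeros too are no measurement. Reads over a precursor locus cannot be told apart from unspliced RNA of the surrounding transcript. With unknown strand settings of the counting, they can also not be told apart from Rtl1 reads in the case of Mir433.

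In all, 8 of the 9 tested genes between the start of Dlk1 and the end of Mirg were called higher in replicate 2. The share called higher over all genes tested was 8.88%. The ninth, Mir1188, also had a positive ratio. Mir433 and Mir1188 reached 10 counts only in replicate 2, so a ratio above 0 was fixed for both by the filter. With the assumed dispersion of 0.01 the calls of Dlk1 and Gm26945 remained and the other 6 were lost. The median log2 ratio of the 9 genes was 0.46, with a range of 0.25 to 1.99, beside a median of 0.00 over all genes. In the flanks of 1000 kb on both sides 18 genes were tested, of which 1 was called higher and 2 lower, with a median of -0.03. Among them Gm47980 and Gm19605 reached 10 counts only in replicate 2, and Dio3os only in replicate 1. The filter fixed the sign of their ratios, and none of them was called. On the Dlk1 side the nearest gene with 1 TPM or more in both libraries was Begain, a protein of the postsynaptic density, with 3685 counts in replicate 2 and 3504 in replicate 1. It was not called (log2 0.07 ± 0.03, counting SE, adjusted p = 0.117 in the exact test). Wdr25 had 159 and 178 counts in replicate 2 and replicate 1, and Wars, the tryptophanyl-tRNA synthetase, had 2203 and 2290, and neither was called. On the far side Ppp2r5c, a regulatory subunit of protein phosphatase 2A, was called lower with 4842 counts in replicate 2 and 5361 in replicate 1 (log2 -0.15 ± 0.03, counting SE). Hsp90aa1, a heat shock protein that was the other flanking gene called lower, had 21846 and 23634 counts.

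Dio3, the thyroid hormone deiodinase and the paternally expressed gene at the far end of the imprinted domain (chr12:110279068-110281097), had 65 counts in replicate 2 and 24 in replicate 1. It was 2.71-fold higher (exact interval 1.67 to 4.53, adjusted p = 0.000142 in the exact test), and it was the flanking gene called higher. Its antisense neighbour Dio3os had 7 counts in replicate 2 and 13 in replicate 1 and was not called (adjusted p = 0.492 in the exact test).

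**Figure D2:**
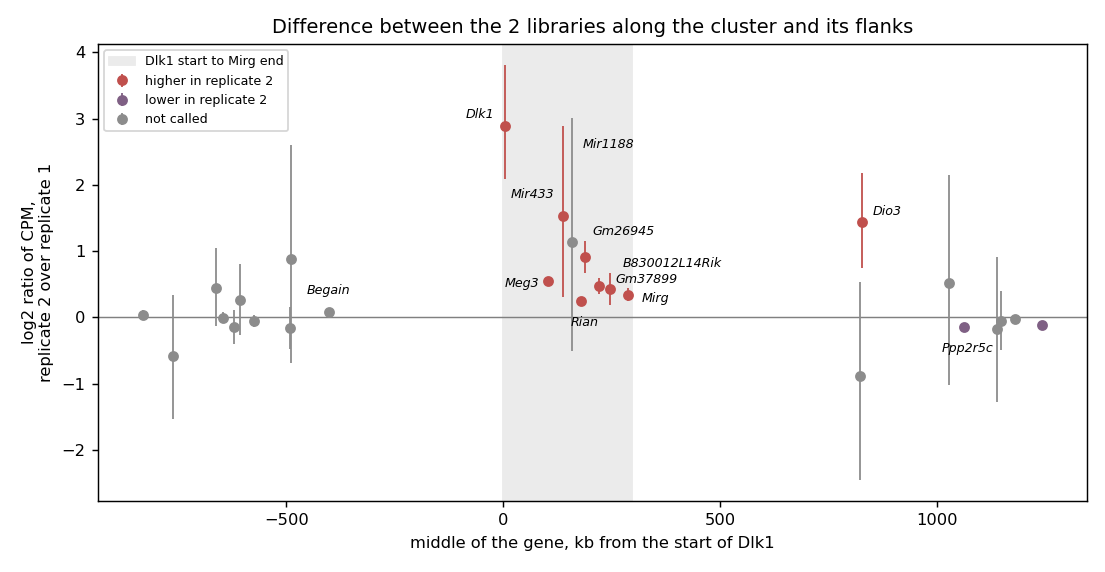
Log2 ratio of CPM, replicate 2 over replicate 1, with no CPM added and exact 95% counting intervals, for each gene with 10 counts or more against the distance of its middle from the start of Dlk1 in kb. Inside the shaded cluster all 9 genes lie above 0 and 8 were called higher. Mir433 and Mir1188 passed the filter only through replicate 2, which fixed their place above 0. Of 18 flanking genes 1, Dio3, was called higher and 2 lower. The filter also fixed the side of 0 for the flanking genes Gm47980, Gm19605 and Dio3os.

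Meg3's counts lay mostly on 1 long transcript. Of its 11 transcripts, Meg3-209, with 14548 nucleotides and 5 exons, held 74.9% of counts in replicate 2 and 74.8% in replicate 1, and Meg3-205, with 1498 nucleotides and 3 exons, held 7.97% and 7.96%. Because TPM divides by length, Meg3-209 made up 16.0% of the gene's TPM in replicate 2 and 15.4% in replicate 1. Transcript shares were tested with Fisher's exact test of each transcript's counts against the rest of its gene, with Benjamini-Hochberg adjustment over 53928 transcripts, of which 37.4% were called. Of Meg3's 11 transcripts 1 was called higher and 2 lower in share, and the largest difference was 0.539 percentage points. In the second quantification 3 of 9 tested shares were called higher and 4 lower, where 38.6% of all tested shares were called. There Meg3-209 was called lower, with 69.5% in replicate 2 and 70.3% in replicate 1 (adjusted p = 0.00438 in Fisher's exact test), and Meg3-206 held 18.6% and 17.4%, against 1.86% and 1.32% in the first tables. The counts of a gene were divided among overlapping transcripts by the authors' software, so they are less certain than counts of reads.

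Rian's shares moved further than Meg3's. Rian-202, a spliced transcript of 2355 nucleotides and 11 exons, held 51.2% of counts in replicate 2 and 53.8% in replicate 1, and Rian-213, of 1219 nucleotides and 8 exons, held 16.2% and 18.4%. Both shares were called lower in replicate 2 (adjusted p = 6.37e-07 and 3.36e-08 in Fisher's exact test). Rian-209, a single exon of 3476 nucleotides, held 5.28% in replicate 2 and 3.49% in replicate 1 and was called higher (adjusted p = 1.58e-17 in Fisher's exact test). Rian-201, of 8089 nucleotides and 2 exons, held 5.28% in replicate 2 and 4.63% in replicate 1 and was called higher as well (adjusted p = 0.00741 in Fisher's exact test). Over all 17 tested transcripts of Rian 8 were called higher and 3 lower, where 37.4% of all tested transcripts were called in either direction. The largest difference was 2.65 percentage points. In the second quantification Rian-213, Rian-209 and Rian-201 were called in the same directions and Rian-202 was not called.

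Mirg had no transcript in front to that degree. Of its 12 transcripts 6 held 5% or more of counts. Mirg-201, of 1906 nucleotides and 2 exons, had 31.0% in replicate 2 and 29.4% in replicate 1. Mirg-208, with 15 exons, had 17.9% and 19.8%, and Mirg-204, with 12 exons, had 14.2% and 11.9%. Mirg-212, with 17 exons, had 12.1% in replicate 2 and 11.8% in replicate 1, Mirg-203 had 8.97% and 9.60%, and Mirg-207 had 8.06% and 9.15%. None of 9 tested shares was called at this depth in Fisher's exact test, and 2 of 9 were called lower in the second table, where 38.6% of all tested shares were called. The second table put Mirg-208 in front, with 29.7% in replicate 2 and 30.0% in replicate 1, and Mirg-204 had 24.2% and 20.9% there. Mirg-207 lay under the 5% limit there, with 0.254% in replicate 2 and 0.384% in replicate 1.

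Dlk1's 14 counts in replicate 1 are too few to divide with confidence among its 10 transcripts. Dlk1-205 was given 15.1% of counts in replicate 2 and 77.9% in replicate 1 and was called lower (adjusted p = 1.97e-05 in Fisher's exact test). In the second table it had 15.6% and 38.2% and was not called, whereas Dlk1-206 was called higher there with 29.7% in replicate 2 and 0.00102% in replicate 1 (adjusted p = 0.0303 in Fisher's exact test). Dlk1-208 was given 36.7% in replicate 2 and 19.2% in replicate 1, Dlk1-201 had 19% and 0%, Dlk1-206 had 13.4% and 0%, and Dlk1-203 had 7.93% and 1.28%. For Dlk1-201 and Dlk1-203 the direction turned in the second table, with 16.0% in replicate 2 and 29.2% in replicate 1 for Dlk1-201 and 12.3% and 30.7% for Dlk1-203. Rtl1 has 1 annotated transcript of 6358 nucleotides and 2 exons.

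**Figure D3:**
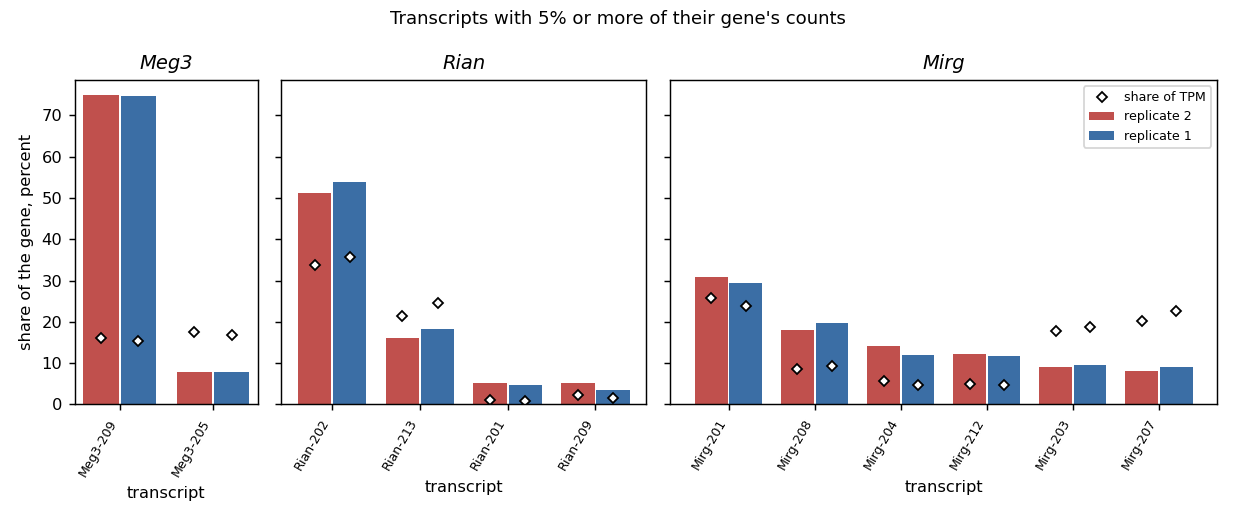
Share of each gene's counts, in percent, for the transcripts of Meg3, Rian and Mirg with 5% or more, as bars for replicate 2 and replicate 1, with the share of the gene's TPM as diamonds. Meg3-209 holds 74.9% and 74.8% of counts but 16.0% and 15.4% of TPM, and the Rian-202 bar is lower in replicate 2.

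The gap in Dlk1 stood beside gaps in markers of other tissues of the brain. Of 15 hypothalamus and pituitary markers 6 were tested and 3 were called higher in replicate 2, and the list summed to 19.8 TPM in replicate 2 and 3.83 TPM in replicate 1. Avp, the vasopressin precursor, had 101 counts in replicate 2 and 1 in replicate 1. Trh, the precursor of thyrotropin-releasing hormone, had 152 and 30 counts, and Sim1, a transcription factor of the paraventricular nucleus, had 16 and 1. Of the list's sums, Avp gave 10.25 TPM in replicate 2 and 0.1 TPM in replicate 1, and Trh gave 5.76 and 1.09 TPM. The other tested markers of the list were not called: Pomc had 28 counts in replicate 2 and 31 in replicate 1, Gal had 7 and 10, and Nkx2-1 had 12 and 9. The pituitary hormones Gh and Prl were at 0 in both libraries. Of 8 choroid plexus markers 7 were called higher, where 8.88% of all genes tested were. The list summed to 139 TPM in replicate 2 and 12.5 TPM in replicate 1. Ttr, the thyroxine carrier, gave 131 and 9.86 TPM of these sums. Avp, Sim1, Nkx2-1, Slc4a5, Folr1, Otx2 and Kcne2 reached 10 counts only in replicate 2, so the filter fixed their ratios above 0. Gal reached 10 counts only in replicate 1, which fixed its ratio below 0. Whether hypothalamus, pituitary or choroid plexus contributed to the difference in Dlk1 or Dio3 was not tested.

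**Figure D4:**
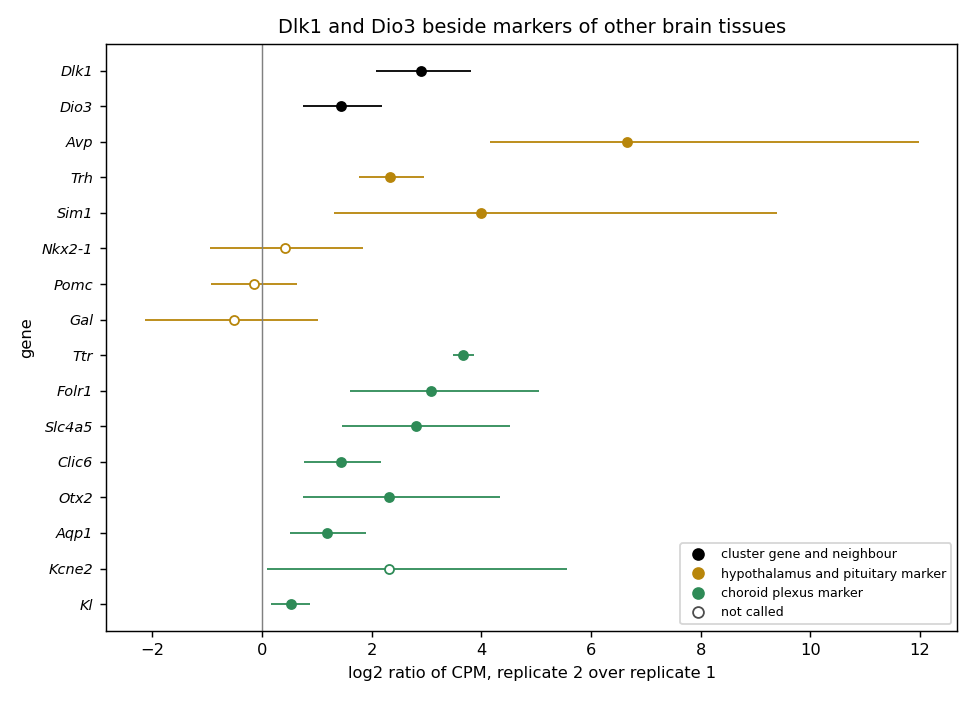
Log2 ratio of CPM, replicate 2 over replicate 1, with no CPM added and exact 95% counting intervals, for Dlk1, Dio3 and the tested markers of hypothalamus and pituitary and of choroid plexus. Open points were not called. Avp, Trh, Sim1, Nkx2-1 and all 8 choroid plexus markers lie above 0, Nkx2-1 and Kcne2 without being called. Pomc and Gal lie below 0 and were not called. Avp, Sim1, Nkx2-1, Slc4a5, Folr1, Otx2 and Kcne2 reached 10 counts only in replicate 2, and Gal only in replicate 1. The filter therefore fixed on which side of 0 these genes lie. Dlk1 stood at 7.43-fold and Dio3 at 2.71-fold.

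Other cell type markers were counted in the same test, in which 8.88% of all genes tested were called higher and 11.4% lower. Several of these lists are short, so few calls in them can lie near these shares. Of 9 myelinating oligodendrocyte markers 8 were called lower, with summed levels of 1344 TPM in replicate 2 and 2406 TPM in replicate 1, and of 8 striatum markers 7 were called lower (195 and 302 TPM). Of 6 excitatory neuron markers 5 were called lower (3023 TPM in replicate 2 and 3243 TPM in replicate 1), and of 6 inhibitory interneuron markers 2 were called lower (496 and 501 TPM). Of 6 astrocyte markers 2 were called higher and 3 lower (1662 and 1783 TPM), and of 5 microglia markers 2 were called lower (113 and 120 TPM). None of 5 endothelial markers was called in the exact binomial test (83.0 TPM in replicate 2 and 86.6 TPM in replicate 1). All 5 erythroid markers were called higher (1264 and 846 TPM), and of 9 meningeal and perivascular markers 5 were called higher and 1 lower (204 and 175 TPM). All 6 excitatory neuron markers, which define cortex, stood above 1 TPM in both libraries. The part of these differences in those of Meg3, Rian and Mirg was not tested.

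Imprinted genes of other chromosomes were set beside the cluster by the copy they are listed as expressed from. The copy used in this cortex was not measured and may differ from the listed one. Of 23 genes listed as paternally expressed 13 were called higher and 3 lower, with a median log2 ratio of 0.14, beside 8.88% higher and 11.4% lower over all genes. With the assumed dispersion of 0.01 none of these genes was called in edgeR's exact test, nor any gene of the maternally expressed, noncoding, regulator, Notch, microRNA processing and box C/D lists. Magel2 (log2 0.86 ± 0.21, counting SE), a gene of the Prader-Willi region, had 137 counts in replicate 2 and 68 in replicate 1, Zim1 (0.73 ± 0.18) had 182 and 103, and Nnat (0.59 ± 0.03), neuronatin, had 4339 and 2878. Zim1 is known to be expressed from the maternal copy and stands wrongly in this list, and without it 12 of 22 were called higher and 3 lower. Of 11 genes listed as maternally expressed 9 were tested, and Ppp1r9a, the actin-binding neurabin, was called lower (log2 -0.19 ± 0.02, counting SE). The median of these 9 was -0.01, and with Zim1 added, of 10 tested 1 was called higher and 1 lower and the median was 0.02.

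Other nuclear long noncoding RNAs were counted as a group. Of 14 tested 8 were called higher and 2 lower, with a median log2 ratio of 0.24, beside 8.88% higher and 11.4% lower over all genes. Snhg11, a host of small nucleolar RNAs, had 269 TPM in replicate 2 and 175 TPM in replicate 1 (log2 0.59 ± 0.01, counting SE). Kcnq1ot1, the imprinted antisense RNA of Kcnq1, had 2.44 and 1.58 TPM (0.57 ± 0.03), and Firre, an X-linked nuclear RNA, had 13.7 and 9.88 TPM (0.45 ± 0.08). Kcnq1ot1 stands in the list of paternally expressed genes too, as do Snhg14, Airn and Peg13.

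Among proteins that act on the cluster's imprinting control region, of 18 tested 4 were called higher and 1 lower, with a median of 0.06. Zfp57, the zinc finger protein that binds methylated imprinting control regions, had 13.2 TPM in replicate 2 and 6.95 TPM in replicate 1 (log2 0.75 ± 0.12, counting SE). Tet2, a 5-methylcytosine dioxygenase, had 22.8 and 18.7 TPM (0.20 ± 0.04), and Zfp445, a zinc finger protein with a related role, had 71.2 and 62.7 TPM (0.15 ± 0.03). In the Notch pathway, to which Dlk1 is related, 5 of 22 genes were called higher and 3 lower, with a median of 0.02. Beside the regulator and Notch lists, the shares over all genes tested were 8.88% higher and 11.4% lower. Hes1, a Notch target, had 6.37 TPM in replicate 2 and 9.67 TPM in replicate 1 (log2 -0.45 ± 0.14, counting SE), and Lfng, which glycosylates Notch, had 8.91 and 11.2 TPM (-0.45 ± 0.10). Hes5, another Notch target, was called higher, with 23.0 TPM in replicate 2 and 15.5 TPM in replicate 1 (0.40 ± 0.10).

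Of the 10 microRNA processing genes 2 were called higher, the Argonautes Ago4 (2.97 TPM in replicate 2 and 2.10 TPM in replicate 1, log2 0.39 ± 0.12, counting SE) and Ago3 (13.2 and 11.8 TPM, 0.12 ± 0.05). The median of the list was 0.05, and of all genes tested 8.88% were called higher. None of the 4 proteins of box C/D small nucleolar particles was called in the exact binomial test, with a median of 0.06.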

How the data were processed

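Total RNA of 2 cortex libraries was sequenced after ribosomal RNA reduction, per the labels. The authors deposited expected counts and TPM per gene and per transcript, from a transcriptome alignment, and estimated counts and TPM in a second transcript table made from the reads, on mm10 with GENCODE M21, per deposited notes beside the tables. The percentage of a gene's TPM per transcript was deposited too, per the file headers. Which tools and strand setting were used was not stated there. Gene counts summed to 32013997 in replicate 2 and 33362704 in replicate 1, with 0.361% and 0.359% of counts on spike-ins. Rows that name no gene held 1.51e-05% and 1.49e-05%.

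Expected counts were rounded and tested with scipy 1.17.1, using library sizes from edgeR 4.0.16 in R 4.3.3. The libraries differed beyond sampling noise and were counted as 2 samples: chi-square per degree of freedom was 11.3 over 15874 genes. The test was also run on counts simulated with counting error alone. These libraries spread more than that, so the simulation cannot show that calls hold for them. The members and lists were chosen with earlier results of these data known. Named were the members, cluster genes with 10 counts or more, the nearest neighbours, the 3 largest ratios called per list, and transcripts with 5% or more of counts. Hsp90aa1, Dio3os, Gm47980, Gm19605 and the microRNAs shown were chosen after their values were seen. DESeq2 1.42.0 size factors, total and spike-in scaling, other filters, a fixed dispersion and the second table were tried as alternatives.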

Additional observations from a re-analysis of the deposited data

How the results depend on the processing

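No paired analysis was possible because both libraries belong to 1 group, and no test between them can leave out a library. Assuming a dispersion of 0.01 lowered the calls over all genes to 182 and the cluster genes called higher to 2, Dlk1 and Gm26945, and left log2 ratios of 0.54, 0.25 and 0.34 for Meg3, Rian and Mirg uncalled (adjusted p = 0.374, 1 and 1 in edgeR's exact test). It left 1 flanking gene called and 0 genes in each list of imprinted, noncoding, regulator, Notch, microRNA processing and box C/D genes. In all other alternatives run, Dlk1, Meg3, Rian and Mirg were called higher. Scaling by total counts or spike-ins shifted the median of all genes by 0.06 and 0.05 and raised the higher share of calls to 70.5% and 67.6%, against 43.8%. It gave 6 and 5 flanking calls, among them Begain, 3 maternally expressed, 4 microRNA processing and 2 box C/D protein genes under each, and turned the ratio of Wars to 0.0036 with total counts. The maternal list had 2 calls at 50 counts, in the second table or with Zim1, and the microRNA processing list had 1 with no filter or in the second table. Mir433 lost its call with DESeq2 size factors (adjusted p = 0.0527 in the exact test) and with no filter. Applying these settings to lists and flanks was chosen after seeing the data.

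TPM without spike-ins, mitochondrial genes and misc_RNA was 2226 for Meg3, 1123 for Rian, 87.5 for Mirg and 0.0928 for Rtl1. In the second table, with none of these rows removed, mean TPM was 1145 for Rian, 70.0 for Mirg and 0.0792 for Rtl1. With 1 library left out, levels lay at 1073 to 1566 for Meg3, 594 to 738 for Rian, 45.2 to 58.5 for Mirg, 0.39 to 2.38 for Dlk1 and 0.04 to 0.07 for Rtl1.

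In the second table the log2 level ratios were -0.067 for Rian over Meg3, -4.09 for Mirg over Meg3, -4.02 for Mirg over Rian, -12.71 for Rtl1 over Meg3, 12.64 for Rian over Rtl1 and 8.62 for Mirg over Rtl1. With 1 TPM added those of Rtl1 over Dlk1 and Meg3 were -1.04 and -10.26, and those of Rian and Mirg over Rtl1 were 9.30 and 5.64. The leading transcripts of the first tables held 69.9% for Meg3-209, 46.1% for Rian-202 and 25.6% for Mirg-201 in the second table, where Mirg-208 stood above Mirg-201, and as shares of TPM 15.7%, 34.7% and 24.8%. The cause of these shifts was not tested. Few counts limit Dlk1, Rtl1 and the microRNA loci.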
